A study of Homo sapiens with 12 samples.

Results

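The genes described here encode the EGF receptor EGFR, the EGF family ligands HBEGF, EREG and NRG1, and the feedback inhibitors ERRFI1, LRIG1, SPRY2, SPRY4 and SPRED1. These 9 genes were chosen by name from 25702 genes counted, and all 9 were among the 9490 genes expressed highly enough to be tested. RNA was sequenced from WI-38 cells, a line of normal human lung fibroblasts. Cells were cultured in medium with serum, either untreated (D1 and D20) or with 2 ng/mL TGF-β (D1+ TGF-β and D20+ TGF-β), for 1 or 20 days, and 3 flasks were sequenced per condition. D1 cells were at passage 2 to 3 and D20 cells at passage 5 to 6. According to the study's methods, the D20 flasks of each treatment were all seeded from a single D1 flask of that treatment, so the p-values below measure only the spread between these flasks. Time in culture, passage number and confluence differed together between D1 and D20 and cannot be told apart.

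EGFR is a receptor tyrosine kinase that is activated when a bound ligand lets it pair with another receptor of the ERBB family. Its ligands are made as membrane proteins and released by ADAM proteases. Within the cell the receptor signals through the adaptors GRB2 and SHC1 to RAS and the kinases of the ERK cascade, and this signal drives proliferation and migration of fibroblasts. ERK activity in turn induces genes whose products restrain the receptor or the cascade. The 5 feedback inhibitors above restrain the receptor or the cascade, and whether ERK induces each of them in these cells was not tested. TGF-β signals through a different class of receptor, and the exchange between both pathways is a long-standing subject of work on lung fibrosis.

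The levels of the members are given as cpm, with library sizes corrected by TMM factors. A gene was called when its p, adjusted by Benjamini-Hochberg over all genes tested, was below 0.01 in the quasi-likelihood test of edgeR. Library totals lay between 8674488 and 18286197 counts. A pair of libraries stood apart from the other flasks of their condition. The counts of D1 replicate 2 differed from those of replicates 1 and 3 with a chi-square per degree of freedom of 29.2 and 27.5, against 10.7 between those replicates. For D20+ TGF-β replicate 3 the values were 21.8 and 16, against 4.52 between replicates 1 and 2, and in the other conditions they lay between 1.63 and 3.81. Results that rest on either library are given with and without it. The cells had the markers of their label, with a summed level of 7 fibroblast genes between 12935 and 22424 cpm. The 5 epithelial markers summed to at most 0.586 cpm and the 4 endothelial markers to at most 2.58 cpm in any library, and CD3E had 0 counts in all of them. PTPRC reached at most 0.190 cpm, whereas CD68, which fibroblasts also express, brought the sum of the 3 leukocyte markers to between 37.5 and 61.6 cpm. ACTA2, which encodes the αSMA that defines myofibroblasts, averaged 180 ± 52.1 cpm (SD, n = 3) in the D1 flasks, was called higher in D1+ TGF-β vs D1 and averaged 756 ± 78.0 cpm in the treated flasks. At D20 it averaged 282 ± 9.97 cpm and at D20+ TGF-β 309 ± 37 cpm, and was not called (log2 fold change 0.13, SE 0.17). Of the 3 tested markers of smooth muscle and myofibroblasts, all were called higher in D1+ TGF-β vs D1. In D20+ TGF-β vs D20 none was called higher, and CNN1 was called lower, from 52.3 ± 0.225 to 38.7 ± 4.84 cpm. The study's staining found αSMA protein in most cells after the long treatment and in none after the short treatment. These RNA levels therefore do not date the myofibroblast state, and the reason for the difference was not tested.

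Positions of the members are given in GRCh37 (hg19), the build used by the authors for mapping. EGFR lies on the plus strand at chr7:55086710-55279321, EREG on the plus strand at chr4:75230862-75254466 and SPRED1 on the plus strand at chr15:38545037-38649450. HBEGF (chr5:139712428-139726188) and SPRY4 (chr5:141689992-141706020) share chromosome 5 on the minus strand. ERRFI1 (chr1:8064464-8086369), LRIG1 (chr3:66429221-66551687) and SPRY2 (chr13:80910111-80915261) are also on the minus strand. The annotation places a gene on the opposite strand of EGFR, NRG1, ERRFI1, LRIG1 and SPRY4. Whether the counting used strand is not given in the sources used here, so reads of such pairs may not have been told apart. EGFR-AS1, opposite EGFR, had at most 1.62 cpm in any library, and SLC25A26, opposite LRIG1, had between 9.85 and 13.5 cpm and was called in none of the comparisons.

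The promoters of HBEGF, ERRFI1 and SPRY2 are shown because these 3 genes were called lower at D20+ TGF-β against D1+ TGF-β, and that of EREG because it was called in the opposite direction to SPRY2 at D20. Each is the 250 bases before the gene's first start listed by RefSeq (GRCh38.p14), read 5′ to 3′ along the gene. Capitals mark every match, on either strand, to the AP-1 motif TGACTCA, the SMAD box CAGAC, the ETS motif CCGGAA, the Sp1 motif GGGCGG or the TATA motif TATAAA. The HBEGF, ERRFI1 and SPRY2 stretches lie on the minus strand at chr5:140346604-140346853, chr1:8026310-8026559 and chr13:80341127-80341376, and that of EREG on the plus strand at chr4:74364895-74365144, all in GRCh38.p14.
HBEGF: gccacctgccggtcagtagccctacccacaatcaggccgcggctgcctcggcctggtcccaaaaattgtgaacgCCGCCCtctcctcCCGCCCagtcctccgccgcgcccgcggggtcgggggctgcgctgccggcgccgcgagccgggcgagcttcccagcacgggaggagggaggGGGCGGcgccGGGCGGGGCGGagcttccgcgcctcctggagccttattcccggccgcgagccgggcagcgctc
ERRFI1: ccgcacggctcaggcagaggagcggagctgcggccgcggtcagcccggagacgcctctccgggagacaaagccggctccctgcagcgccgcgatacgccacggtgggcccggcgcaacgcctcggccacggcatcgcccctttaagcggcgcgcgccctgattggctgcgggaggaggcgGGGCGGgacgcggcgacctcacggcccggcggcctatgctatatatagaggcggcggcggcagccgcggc
SPRY2: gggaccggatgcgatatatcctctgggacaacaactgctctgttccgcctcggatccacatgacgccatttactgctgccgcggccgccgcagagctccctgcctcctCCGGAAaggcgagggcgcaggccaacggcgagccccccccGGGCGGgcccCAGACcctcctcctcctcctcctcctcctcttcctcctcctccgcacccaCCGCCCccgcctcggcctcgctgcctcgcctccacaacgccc
EREG: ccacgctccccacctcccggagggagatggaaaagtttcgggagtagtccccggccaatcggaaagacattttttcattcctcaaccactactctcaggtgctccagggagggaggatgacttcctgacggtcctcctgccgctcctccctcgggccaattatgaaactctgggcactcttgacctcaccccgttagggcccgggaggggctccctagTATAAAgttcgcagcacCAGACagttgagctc
The HBEGF stretch held 5 matches to the Sp1 motif, a pair of them overlapping, and no match to the other motifs. The ERRFI1 stretch held 1 Sp1 match. SPRY2 had an ETS match starting 142 bases before the start, a SMAD box at 92 bases and 2 Sp1 matches. EREG had no Sp1 match, but held a TATA motif 32 bases and a SMAD box 15 bases before the start. GC content was 76.4% for HBEGF, 75.2% for ERRFI1, 70.4% for SPRY2 and 58.0% for EREG. Over the same stretch of 27305 genes, 42.3% held the Sp1 motif, 37.8% the SMAD box, 14.8% the ETS motif, 11.1% the TATA motif and 4.16% the AP-1 motif, which none of the members with a listed promoter held. The matches are a description of the letters and say nothing of binding in these cells.

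For a comparison between genes, the levels of the members were divided by the length of the canonical transcript. Which transcripts these cells express was not tested, so the order of the genes rests on that length. At D1 the means ran in the order SPRY2 (20.9 ± 2.79 cpm per kb, SD, n = 3), EGFR (18.1 ± 3.21 cpm per kb), then ERRFI1, SPRY4, LRIG1, SPRED1 and EREG between 17.2 and 13.2 cpm per kb, HBEGF (6.01 ± 1.90) and NRG1 (2.09 ± 0.884). From SPRY2 down to HBEGF neighbours in this order differed by less than the larger of their SDs, whereas NRG1 lay below HBEGF by more than that. At D1+ TGF-β ERRFI1 stood first with 30.1 ± 0.640 cpm per kb, above SPRY2 with 23.7 ± 1.28 cpm per kb. At D20 SPRED1, EGFR and EREG led with means between 16.8 and 17.3 cpm per kb that lay within the SD of EREG, and SPRY2 had 7.97 ± 0.404 cpm per kb. At D20+ TGF-β LRIG1 (19.6 ± 1.72 cpm per kb) and EGFR (19.1 ± 1.90 cpm per kb) did not differ beyond their spread. HBEGF had the lowest mean per length in both D20 conditions, 1.37 ± 0.0430 and 1.62 ± 0.178 cpm per kb, although at D20+ TGF-β NRG1 (2.79 ± 1.40 cpm per kb) was not apart from it.

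**Figure D1:**
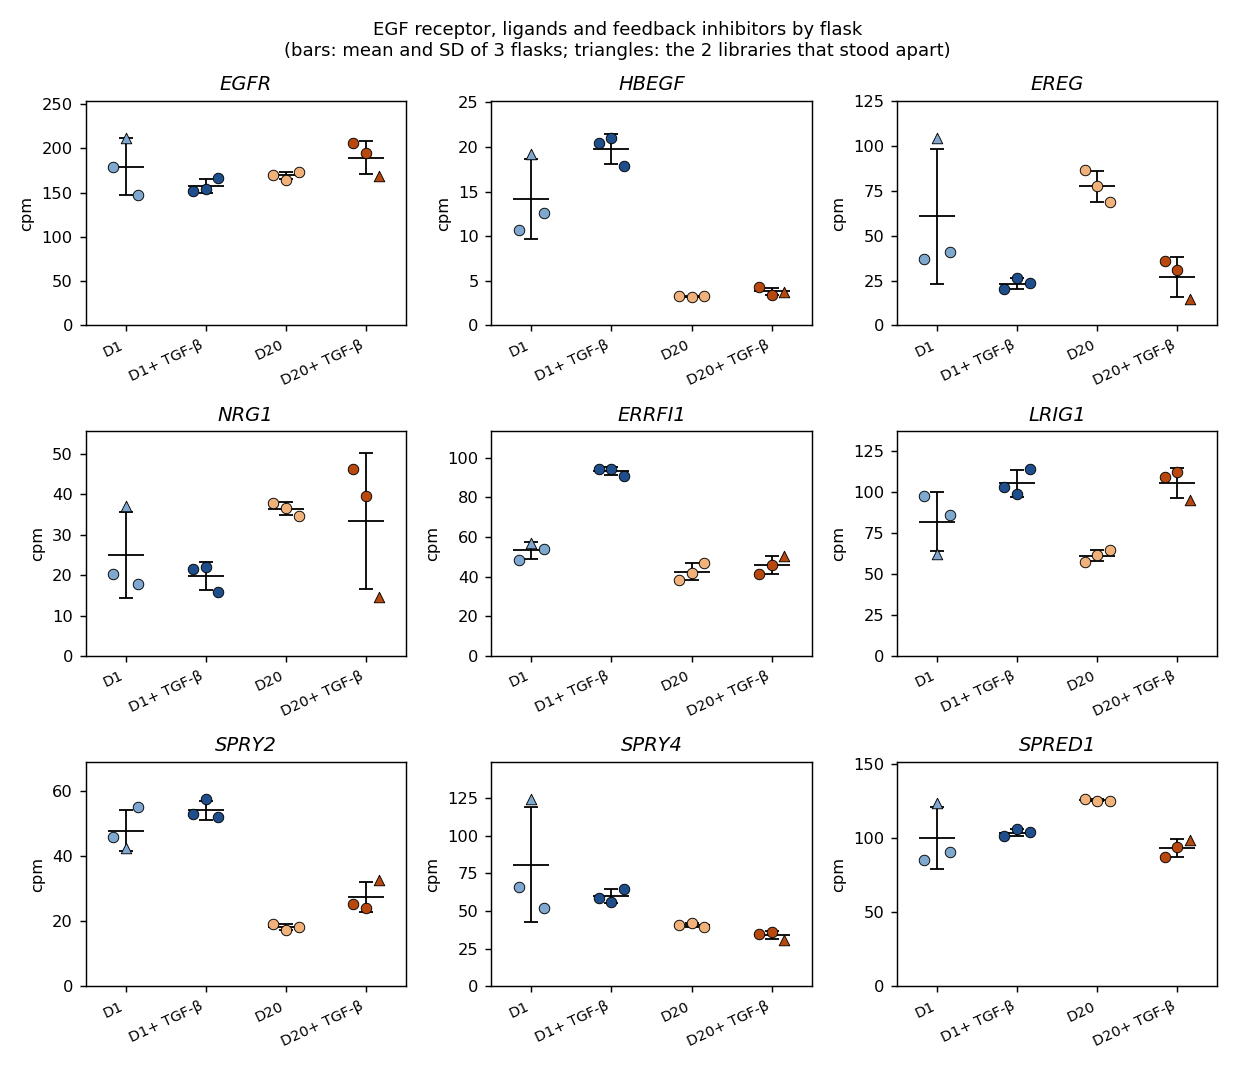
Levels of the 9 members in cpm (vertical axes, each from 0) in the 3 flasks of the 4 conditions; horizontal bars and whiskers are means and SDs, and triangles are D1 replicate 2 and D20+ TGF-β replicate 3. All flasks of HBEGF and SPRY2 were lower at D20 than at D1, the 3 flasks of ERRFI1 at D1+ TGF-β were above all others, and EGFR lay between 148 and 211 cpm throughout.

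The receptor itself was not called in any comparison. EGFR had 179, 211 and 148 cpm in the D1 flasks, 152, 154 and 166 cpm in the D1+ TGF-β flasks, 170, 165 and 173 cpm at D20 and 206, 194 and 169 cpm at D20+ TGF-β. The conditions overlapped except D1+ TGF-β and D20+ TGF-β, where all 3 later flasks were higher. The log2 fold change was -0.19 (95% interval -0.43 to 0.05) for D1+ TGF-β vs D1, while it was 0.16 (-0.07 to 0.40) for D20+ TGF-β vs D20. Between the treated conditions of D20 and D1 it was 0.27 (0.04 to 0.51, adjusted p = 0.0541), and for D20 vs D1 it was -0.08 (-0.32 to 0.16). Without both libraries that stood apart, EGFR was called higher in D20+ TGF-β vs D20 (0.26) and against the treated D1 flasks (0.34). The genes whose log2 cpm followed EGFR most closely over the 12 libraries were NXF1 (Pearson r = 0.93), UBE4B (0.88) and IRF3 (0.86), given as a description of libraries that share their scaling.

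The other receptors of the family were expressed unequally. ERBB2, the partner receptor that binds no ligand of its own, had 85.2, 89.4 and 94.2 cpm at D20 and 58.5, 69.8 and 65.7 cpm at D20+ TGF-β, without overlap. It was called lower in D20+ TGF-β vs D20 (log2 fold change -0.48, SE 0.10, adjusted p = 0.00139) and higher in D20 vs D1 (0.50, SE 0.10, adjusted p = 6.97e-04). The former call was lost without D20+ TGF-β replicate 1 (-0.40, adjusted p = 0.0110). ERBB3 and ERBB4, the receptors that bind NRG1, were at or near 0, with at most 8 and 12 counts in a library. Neither passed the filter on low counts. In a fit without the filter, ERBB4 was called higher at D20+ TGF-β against D1+ TGF-β (log2 fold change 2.92, SE 0.83, adjusted p = 0.00788), on these few counts.

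Of the 3 member ligands, HBEGF alone was called lower over time in culture. HBEGF, heparin-binding EGF-like growth factor, binds EGFR and ERBB4. It had 10.6, 19.2 and 12.6 cpm at D1 and 20.5, 21.0 and 17.8 cpm with TGF-β, and at D20 it had 3.33, 3.13 and 3.24 cpm without and 4.26, 3.43 and 3.76 cpm with TGF-β. Every D20 flask was below every D1 flask, with or without TGF-β. The log2 fold change was -2.35 (SE 0.20, adjusted p = 2.30e-06) at D20+ TGF-β against D1+ TGF-β and -2.14 (SE 0.20, adjusted p = 2.14e-06) in D20 vs D1. HBEGF passed the filter only through the 6 D1 libraries, which favours a difference of this direction. At D20 it rested on 34 to 76 counts per library. In D1+ TGF-β vs D1 it was not called (0.47, SE 0.17, adjusted p = 0.0561), as D1 replicate 2 lay among the treated flasks. Without that library the log2 fold change was 0.78 and HBEGF was called higher. Because RNA of whole flasks was measured, fewer cells expressing a gene and less RNA per cell cannot be told apart here or below. RGS4 (Pearson r = 0.99), GEN1 (0.98) and MCM8 (0.98) followed HBEGF most closely over the 12 libraries. Among the members SPRY2 was nearest to it (r = 0.93).

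EREG was called lower with TGF-β at D20, and at D1 the treated flasks were also all below the untreated flasks. EREG encodes epiregulin, a ligand of EGFR and ERBB4. Its levels were 86.4, 77.5 and 68.9 cpm at D20 and 35.8, 30.6 and 14.7 cpm at D20+ TGF-β, the last from replicate 3. The groups did not overlap, and EREG was called lower (log2 fold change -1.5, SE 0.35, adjusted p = 0.00408). The call was lost without any one of 4 libraries. Without D20 replicate 1 or 2 or D20+ TGF-β replicate 2 the log2 fold changes were -1.41, -1.5 and -1.58 (adjusted p = 0.0157, 0.0127 and 0.0106). Without D20+ TGF-β replicate 3 it was -1.21 (adjusted p = 0.0116). Without both libraries that stood apart it was -1.19 and called. At D1 the levels were 37.3, 104 and 41.1 cpm, and with TGF-β 20.1, 26.2 and 23.4 cpm. D1 replicate 2 was far above the other untreated flasks, and the difference was not called (-1.39, SE 0.36, adjusted p = 0.0129). Without D1 replicate 2 the log2 fold change was -0.73, and without both libraries it was -0.72 and EREG was called lower. The TGF-β responses at D20 and D1 differed by -0.11 (95% interval -1.19 to 0.97). In D20 vs D1, EREG was not called (0.34, SE 0.33) and was called higher without D1 replicate 2 (0.97).

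NRG1, a neuregulin that binds ERBB3 and ERBB4, was not called in any comparison. It had 20.2, 37.1 and 17.7 cpm at D1 and 21.4, 22.0 and 15.9 cpm with TGF-β, and at D20 it had 37.9, 36.6 and 34.7 cpm without and 46.3, 39.5 and 14.5 cpm with TGF-β. The high D1 flask and the low D20+ TGF-β flask were the libraries that stood apart. With all libraries the log2 fold change was 0.77 (95% interval 0.03 to 1.5) at D20+ TGF-β against D1+ TGF-β and 0.53 (-0.18 to 1.24) in D20 vs D1. Without both libraries NRG1 was called higher in these comparisons, with 1.10 and 0.93.

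The other ligands of the family were scarce, and none of the 8 passed the filter. EGF had 18, 18 and 15 counts at D1 and 41, 113 and 37 counts at D1+ TGF-β, or 1.32 ± 0.181 and 5.13 ± 1.04 cpm (SD, n = 3). At D20 and D20+ TGF-β it had 1.14 ± 0.474 and 1.04 ± 0.328 cpm. In a fit without the filter, EGF was called higher in D1+ TGF-β vs D1 (log2 fold change 1.98, SE 0.27, adjusted p = 6.69e-06) and lower at D20+ TGF-β against D1+ TGF-β (-2.45, SE 0.29, adjusted p = 2.68e-07), and its responses at D20 and D1 differed by -2.15 (SE 0.45, adjusted p = 0.00173). AREG had 59 counts in D1 replicate 2 and at most 20 in any other library. TGFA and NRG3 had 0 counts in all 12 libraries, and BTC, EPGN, NRG2 and NRG4 had at most 2, 3, 6 and 16 counts.

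**Figure D2:**
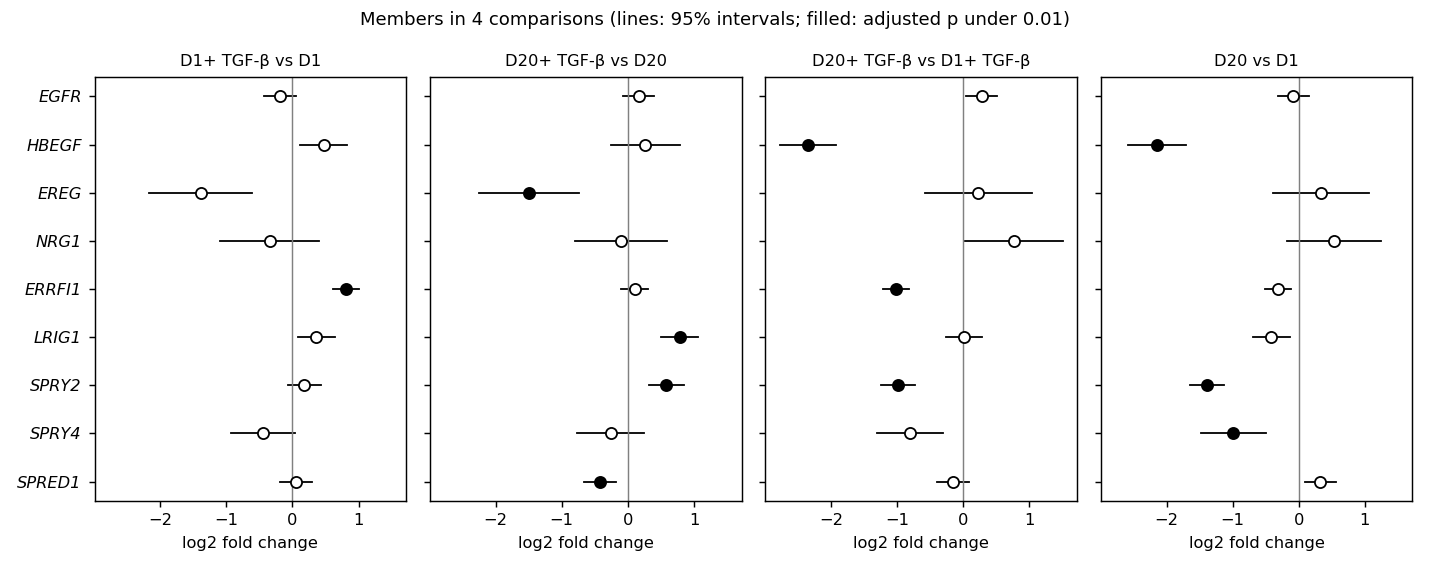
Log2 fold changes of the 9 members (horizontal axes) in the 4 comparisons with 95% intervals; filled circles passed an adjusted p of 0.01. ERRFI1 alone was called in D1+ TGF-β vs D1, 4 members were called in D20+ TGF-β vs D20, and the calls between D20 and D1 were all to the left of 0.

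After 1 day of TGF-β, ERRFI1 was the single member called, against 13.4% of all genes tested that were called in D1+ TGF-β vs D1 (6.89% higher and 6.50% lower). ERRFI1, also known as MIG6, binds the kinase domain of EGFR and blocks its activation. It had 48.6, 56.9 and 54.1 cpm in the untreated and 94.2, 94.4 and 90.9 cpm in the treated flasks. The groups did not overlap, and the treated flasks were the highest of all 12 libraries. The log2 fold change was 0.81 (SE 0.09, 1.75-fold, adjusted p = 3.12e-05), and ERRFI1 was called under all 22 alternatives. At D20 the levels were 38.4, 41.9 and 47.0 cpm and at D20+ TGF-β 41.4, 46.0 and 50.1 cpm, which overlapped (0.10, 95% interval -0.10 to 0.30). The responses at D20 and D1 differed by -0.70 (SE 0.13, adjusted p = 0.00211), and ERRFI1 was the single member called for this difference, as 10.4% of all genes were (4.51% higher and 5.87% lower). ERRFI1 was also called lower at D20+ TGF-β against D1+ TGF-β (-1.02, SE 0.09, adjusted p = 3.09e-06).

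After 20 days of TGF-β, 4 of the 9 members were called, 2 higher and 2 lower, beside 27.5% of all genes (12.8% higher and 14.7% lower). LRIG1, a membrane protein that promotes degradation of ERBB receptors, had 57.5, 61.5 and 64.5 cpm at D20 and 109, 112 and 94.9 cpm at D20+ TGF-β. It was called higher (log2 fold change 0.78, SE 0.13, adjusted p = 3.50e-04), also under all 22 alternatives. At D1 it had 97.6, 62.3 and 86.0 cpm and with TGF-β 103, 98.5 and 114 cpm, the lowest value again from D1 replicate 2. LRIG1 was not called there (0.36, SE 0.13, adjusted p = 0.0589) nor for the difference of the responses (0.42, 95% interval 0.03 to 0.82). Without D1 replicate 2 the log2 fold change at D1 was 0.20, and the difference of 0.60 was called.

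The Sprouty proteins SPRY2 and SPRY4 restrain signalling between the receptor and ERK. SPRY2 had 46.0, 42.6 and 55.0 cpm at D1 and 52.8, 57.4 and 52.0 cpm with TGF-β, and at D20 it had 19.1, 17.3 and 18.3 cpm without and 25.2, 24.2 and 32.7 cpm with TGF-β. All D20 flasks were below all D1 flasks, and among them the treated flasks were above the untreated. SPRY2 was called lower in D20 vs D1 (log2 fold change -1.39, SE 0.12, adjusted p = 9.11e-07) and at D20+ TGF-β against D1+ TGF-β (-0.99, SE 0.12, adjusted p = 2.46e-05). It was called higher in D20+ TGF-β vs D20 (0.58, SE 0.12, adjusted p = 0.00206). That call was lost without D20 replicate 2 (adjusted p = 0.0120, the highest over the alternatives). The highest treated flask was the library that stood apart, and without it the log2 fold change was 0.44 and still called. In D1+ TGF-β vs D1 it was 0.18 (95% interval -0.06 to 0.43).

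SPRY4 had 65.7, 124 and 52.4 cpm at D1 and 58.7, 56.0 and 65.0 cpm with TGF-β, and at D20 it had 40.5, 42.4 and 39.6 cpm without and 35.0, 36.4 and 30.9 cpm with TGF-β. Again the highest flask was D1 replicate 2, and all D20 flasks were below all D1 flasks. SPRY4 was called lower in D20 vs D1 (log2 fold change -0.99, SE 0.23, adjusted p = 0.00268). Without D1 replicate 2 the log2 fold change was -0.54 and still called, whereas the call was lost without D20 replicate 1 or 3 (-0.98 and -0.96, adjusted p = 0.0108 and 0.0130) and with the libraries of the comparison only. At D20+ TGF-β against D1+ TGF-β it was -0.80 (SE 0.23, adjusted p = 0.0117) and not called, and without D1 replicate 2 it was -0.81 and called. TGF-β gave no call for SPRY4 at either time (-0.44 at D1 and -0.26 at D20), and the value at D1 rested on D1 replicate 2, without which it was 0.025.

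SPRED1, which brings the RAS inhibitor NF1 to the membrane, had 126, 125 and 125 cpm at D20 and 87.2, 94.5 and 98.7 cpm at D20+ TGF-β. The groups did not overlap, and SPRED1 was called lower (log2 fold change -0.43, SE 0.11, adjusted p = 0.00758). This call was lost under 10 of 22 alternatives, among them leaving out any D20 or D1+ TGF-β library or D20+ TGF-β replicate 1 or 2, with adjusted p up to 0.0399 and log2 fold changes between -0.47 and -0.37. At D1 it had 85.1, 124 and 90.9 cpm and with TGF-β 101, 106 and 104 cpm (0.05, 95% interval -0.19 to 0.29). Without both libraries that stood apart, SPRED1 was called higher in D1+ TGF-β vs D1 (adjusted p = 0.00562). In D20 vs D1 it was not called with all libraries (0.33, adjusted p = 0.0247) and was called higher without D1 replicate 2. The difference of the responses was -0.48 (SE 0.16, adjusted p = 0.0461), and it was called without D1 replicate 2 (-0.66).

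Between D20 and D1, 3 members were called and all of them lower in each arm, beside 34.8% of all genes at D20+ TGF-β against D1+ TGF-β (17.2% higher and 17.7% lower) and 36.4% in D20 vs D1 (18.9% higher and 17.6% lower). They were HBEGF, ERRFI1 and SPRY2 with TGF-β, and HBEGF, SPRY2 and SPRY4 without. Leaving aside HBEGF, which the filter on low counts favoured to be lower at D20, 2 of 8 members were called lower in each arm. ERRFI1 without TGF-β had a log2 fold change of -0.32 (SE 0.09, adjusted p = 0.0107), just beyond the threshold. The median log2 fold change of the 8 members without HBEGF was -0.07 with and -0.20 without TGF-β, against 0.01 over all genes in both comparisons. Flasks did not overlap for 36.4% of all genes in D1+ TGF-β vs D1 and 58.4% in D20+ TGF-β vs D20. Between times this share was 63.2% with TGF-β and 55.6% without, so the absence of overlap in a member is common in these data. Markers of proliferation moved in the same comparisons. All 8 were called lower between D20 and D1 in both arms and higher in D20+ TGF-β vs D20. CDK1, PLK1, BUB1, AURKB and CDC20 were below 10 cpm in every D20 flask, so the filter favoured a lower level in D20 vs D1 for them. The D1 flasks alone met the filter for these genes, which therefore did not require a higher level at D20+ TGF-β. The levels of all 8 markers summed to 772 to 1190 cpm in the untreated and 820 to 918 cpm in the treated D1 flasks. In the D20 flasks they summed to 122 to 150 and 279 to 475 cpm. The part of proliferation in the levels of HBEGF, ERRFI1, SPRY2 and SPRY4 was not tested.

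**Figure D3:**
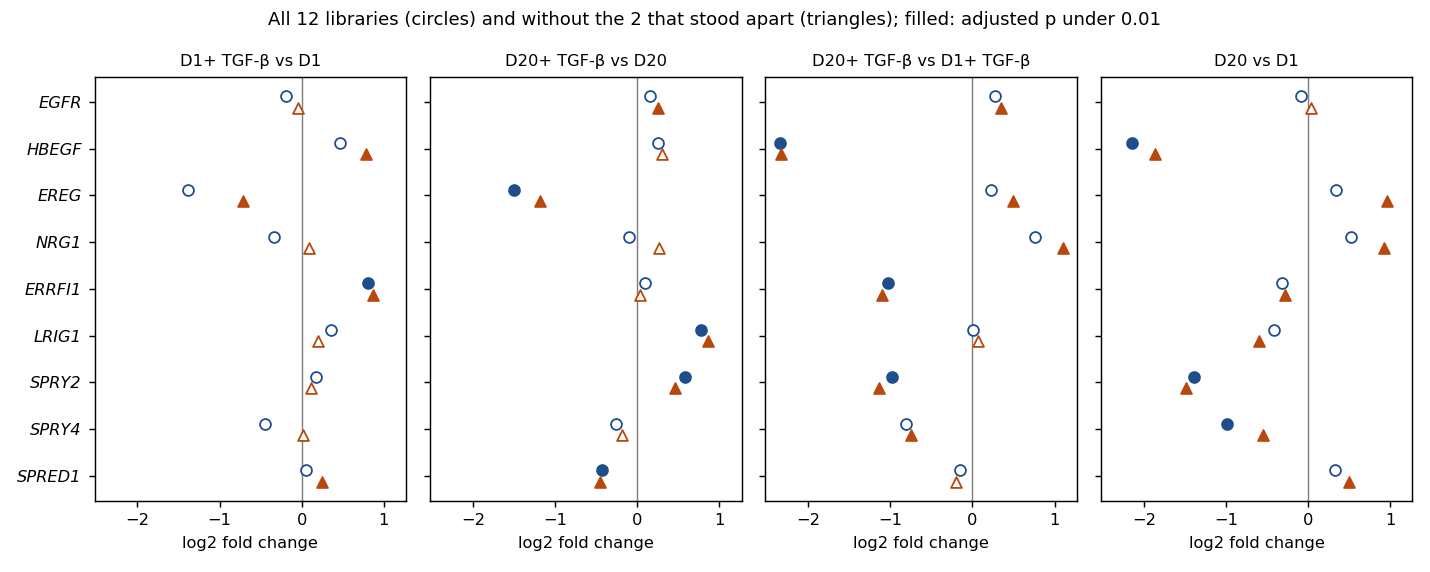
Log2 fold changes of the 9 members (horizontal axes) with all 12 libraries (circles) and without D1 replicate 2 and D20+ TGF-β replicate 3 (triangles); filled symbols passed an adjusted p of 0.01. In D1+ TGF-β vs D1, ERRFI1 moved from 0.81 to 0.87, LRIG1 from 0.36 to 0.20 and EREG from -1.39 to -0.72, and SPRY4 in D20 vs D1 moved from -0.99 to -0.54.

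Without D1 replicate 2 and D20+ TGF-β replicate 3, members called numbered 4 in D1+ TGF-β vs D1 and 5 in D20+ TGF-β vs D20. Between times they numbered 7 with TGF-β (3 higher and 4 lower) and 8 without (3 higher and 5 lower). The calls between D20 and D1 were thus all lower only with both libraries included or in some of the fits. For the difference of the responses they numbered 3. The share of all genes called was then 27.8%, 36.1%, 47.3%, 48.9% and 23.9%, in that order. HBEGF, ERRFI1 and LRIG1 in D1+ TGF-β vs D1 had log2 fold changes of 0.78, 0.87 and 0.20 in that fit, of which the first 2 were called. SPRED1 was also called higher there, and EREG was called lower.

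Of 64 other genes of the pathway, 49 were tested. In D1+ TGF-β vs D1, 9 of them were called, beside 13.4% of all genes, and in D20+ TGF-β vs D20, 18 were, beside 27.5% of all genes. Among the proteases and regulators of ligand release, 2 of the 7 tested were called higher and 2 lower in D1+ TGF-β vs D1. ADAM12 had 18.3 ± 5.39 cpm (SD, n = 3) without and 76.3 ± 8.99 cpm with TGF-β (log2 fold change 2.05, SE 0.18, adjusted p = 4.82e-06). ADAM19 had 79.3 ± 45.1 and 303 ± 19.1 cpm (1.93, SE 0.27, adjusted p = 1.93e-04). ADAM10, which releases EGF and betacellulin among other substrates, was called lower at D1 (-0.52) and D20 (-0.92), and ADAM9 lower at D20 (-0.81). RHBDF2, an inactive rhomboid that escorts the protease ADAM17 to the surface, was called higher in D20+ TGF-β vs D20 (1.02, SE 0.18, adjusted p = 4.66e-04). ADAM17 itself, which releases HBEGF and EREG, was not called in either TGF-β comparison.

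Between the receptor and ERK, none of 18 genes was called in D1+ TGF-β vs D1 with all libraries by edgeR, DESeq2 or limma-voom, with 4, 5 and 4 of them at an unadjusted p under 0.05. Of all genes, edgeR called 13.4% in that comparison. Without D1 replicate 2, edgeR called 3 of the 18, beside 19.8% of all genes. In D20+ TGF-β vs D20, 4 of the 18 were called, all of them lower, a share near the 27.5% of all genes called (14.7% lower). These were MAPK3, the kinase ERK1 (log2 fold change -0.64, SE 0.11, adjusted p = 3.75e-04), the adaptors SHC1 (-0.59, SE 0.07, adjusted p = 2.80e-05) and GRB2 (-0.38, SE 0.06, adjusted p = 1.95e-04), and the exchange factor SOS2 (-0.43, SE 0.11, adjusted p = 0.00547). The call of SOS2 was lost without any 1 of the D20 libraries or D20+ TGF-β replicate 1 or 3 (-0.44 to -0.37, adjusted p up to 0.0326). The median of the 18 genes was -0.17, against 0.01 for all genes tested.

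Of the other feedback genes, 13 of 17 were tested. In D1+ TGF-β vs D1, 2 were called higher and 1 lower, beside 6.89% and 6.50% of all genes. In D20+ TGF-β vs D20, 1 was called higher and 1 lower, beside 12.8% and 14.7% of all genes. CBLB, a ubiquitin ligase of receptors, and SOCS4 were called higher in D1+ TGF-β vs D1 (log2 fold changes 0.95 and 0.36), and the ERK phosphatase DUSP6 was called lower (-0.42, SE 0.07, adjusted p = 6.55e-04). The call of SOCS4 was lost under 13 of 22 alternatives, 10 of which left out a library (adjusted p up to 0.0487). The call of CBLB was lost under 4, namely with the libraries of the comparison only and without D1 replicate 1 or D1+ TGF-β replicate 2 or 3 (adjusted p up to 0.0199). Without D1 replicate 2 they were called with 0.47 and 1.33. In D20+ TGF-β vs D20 the phosphatase PTPN1 was called lower, from 149 ± 2.32 to 86.1 ± 0.764 cpm (SD, n = 3; -0.79, SE 0.07, adjusted p = 2.45e-06), and SPRED2 was called higher (0.40, SE 0.10, adjusted p = 0.00434), a call lost without any 1 of the D20 libraries or D20+ TGF-β replicate 3 (0.30 to 0.42, adjusted p up to 0.0215). The remaining 10 and 11 genes were not called. In a fit without the filter, the ERK phosphatase DUSP4, with 17 to 85 counts per library, was called lower in D1+ TGF-β vs D1 (-0.85, SE 0.22, adjusted p = 0.00841). It was called higher at D20+ TGF-β against D1+ TGF-β (0.88, SE 0.22, adjusted p = 0.00245). SPRED3, with 37 to 103 counts, was called lower in D20 vs D1 in that fit (-0.66, SE 0.19, adjusted p = 0.00887).

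Of 10 genes known to respond to ERK activity, 7 were called higher and 1 lower in D20+ TGF-β vs D20, beside 12.8% and 14.7% of all genes. The median log2 fold change of the 10 was 0.73. The list was chosen with earlier results of these data known. Feedback genes were listed apart and went both ways in that comparison. LRIG1, SPRY2 and SPRED2 were called higher and SPRED1 and PTPN1 lower. ERRFI1, SPRY4 and DUSP6 (83.4 ± 4.16 and 75.6 ± 5.20 cpm) were not called. In D1+ TGF-β vs D1, 1 of the 10 was called higher and 1 lower, beside 6.89% and 6.50% of all genes, with a median of 0.20. The difference of the responses was called for 4 of them, ETV1, ETV4 and FOSL1 higher and CCND1 lower, beside 4.51% and 5.87% of all genes. The ETS factors ETV4 and ETV1 were called higher at D20, ETV4 from 6.76 ± 1.03 to 20.1 ± 1.79 cpm (SD, n = 3; log2 fold change 1.59, SE 0.16, adjusted p = 4.45e-06) and ETV1 from 51.4 ± 6.68 to 94.6 ± 12.7 cpm (0.88, SE 0.16, adjusted p = 6.73e-04). ETV4 was below 10 cpm in every D20 flask. The D1 flasks alone met the filter for ETV4, which therefore did not require a higher level at D20+ TGF-β. IER3 went from 40.0 ± 3.52 to 114 ± 57.7 cpm (1.52, SE 0.30, adjusted p = 0.00127). The other genes called higher were ETV5, EGR1, MYC and PLAUR, of which EGR1 lost its call under 6 of 22 alternatives (without any D20 library or D20+ TGF-β replicate 1 or 2, and with the libraries of the comparison only, adjusted p up to 0.0172), and CCND1, cyclin D1, was called lower (-0.61, SE 0.12, adjusted p = 0.00145). Without D20+ TGF-β replicate 3 the counts were 7 higher and 1 lower as well, beside 23.9% of all genes called in either direction. MYC and the markers of proliferation were higher in the same flasks, and the part of cell growth in this list was not tested. In D1+ TGF-β vs D1, PLAUR was called higher (0.64) and PHLDA1 lower (-0.60), the latter not without any 1 of the D1+ TGF-β libraries (-0.65 to -0.57, adjusted p up to 0.0189).

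**Figure D4:**
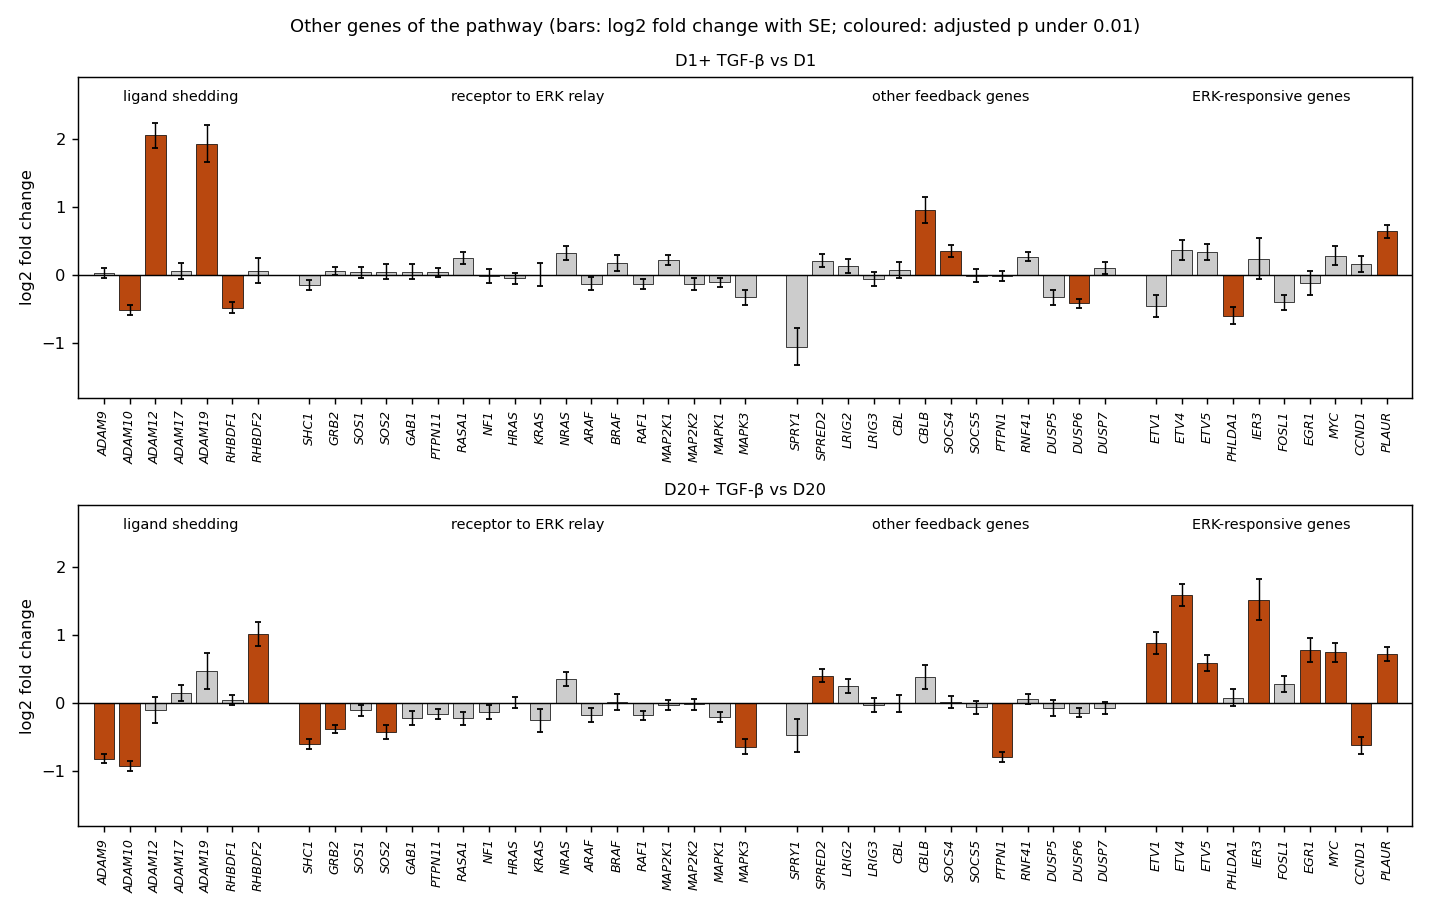
Log2 fold changes with SE (vertical axes) of the tested genes of ligand release, the relay to ERK, other feedback and ERK response in D1+ TGF-β vs D1 (top) and D20+ TGF-β vs D20 (bottom); coloured bars passed an adjusted p of 0.01. ADAM12 and ADAM19 were the tallest bars at D1, and 7 of 10 ERK-responsive genes were coloured and above 0 at D20. ETV4, among these, was below 10 cpm in every D20 flask, and the D1 flasks alone met the filter for it.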

How the data were processed

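RNA of 12 flasks of WI-38 cells was sequenced. Per the labels and the study's methods, the authors prepared directional libraries, used Trimmomatic to trim reads and Rsubread to map them to hg19. The counting program and its annotation are not given in the sources used here. The authors deposited raw counts per gene for 4 lanes of each library, and log2 cpm as written by voom for 9412 genes, which lack HBEGF. The lanes were summed, since they repeat the same RNA. A gene was tested where 6 or more of the 12 libraries had 10 cpm or more, which left 9490 of 20434 genes with a count. Tests used edgeR 4.0.16 in R 4.3.3 (TMM factors, quasi-likelihood F-test, 1 mean per condition over all libraries). The standard error of a log2 fold change is its size divided by the square root of F. Of the genes tested, 9240 were named from the deposited table and 196 from RefSeq. An exact permutation test of 3 against 3 flasks cannot go below p = 0.1 and was not used. No libraries were duplicates.

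The members and lists were chosen with earlier results of these data known. The 9 members, the other receptors and ligands were named throughout, and of each other list the 3 called genes with the largest change per TGF-β comparison. GRB2, ETV5, EGR1, MYC, FOSL1, ACTA2, TAGLN, CNN1, DUSP4, SPRED3 and the opposite-strand genes were named after their values were seen. The same holds for PLAUR, CCND1 and DUSP6 in D20+ TGF-β vs D20 and for ERBB2 in D20 vs D1. Alternatives were DESeq2 1.42.0, limma-voom and limma (3.58.1) on the deposited log2 values, the 48 lanes as samples, RLE factors, no filter, filterByExpr, the libraries of a comparison only, a replicate block, and leaving out each library. Leaving out both libraries that stood apart, counts of the members without HBEGF, and values of genes below the filter, were added after seeing the data. The code was tested on simulated data. Transcript lengths and coordinates are from GENCODE (GRCh37). At these depths counting error is part of the spread between flasks.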

Additional observations from a re-analysis of the deposited data

Results flagged for a closer look

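The response to TGF-β differed between D20 and D1 for the following genes by the interaction term of the edgeR fit (adjusted p under 0.01). The value given is the log2 fold change at D20 minus that at D1. Among the members this was ERRFI1, with -0.70 (SE 0.13), from 0.81 at D1 and 0.10 at D20.

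Of the genes of ligand release, ADAM12 had a difference of -2.15 (SE 0.27), from 2.05 at D1 and -0.10 at D20. ADAM9 had -0.84, from 0.03 and -0.81, and RHBDF1 had 0.52, from -0.48 and 0.04. Of the adaptors, SHC1 had -0.44 and GRB2 -0.43, both called lower at D20 and not called at D1. PTPN1 had -0.78, from -0.01 at D1 and -0.79 at D20.

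Of the ERK-responsive genes, ETV1 had a difference of 1.33, from -0.45 at D1 and 0.88 at D20, and ETV4 had 1.22, from 0.37 and 1.59. CCND1 had -0.77, from 0.16 and -0.61. FOSL1 had 0.69 (SE 0.16), from -0.40 and 0.29, and was called at neither time alone. The differences of RHBDF1, SHC1, GRB2, CCND1 and FOSL1 lost their call under 6, 13, 2, 8 and 10 of 21 alternatives, with adjusted p up to 0.0155, 0.0255, 0.0183, 0.0204 and 0.0297.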

How the results depend on the processing

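Over the members and the other named genes, 1617 of 1797 values under an alternative kept their direction and side of the threshold, 93 lost a call, 62 gained one and 25 changed sign. The cause was not tested. ERRFI1 at D1, LRIG1 at D20, HBEGF and SPRY2 between D20 and D1, and the difference of the ERRFI1 responses were called under every alternative that tested them. HBEGF passed the filter of the main fit only through the D1 libraries, which favours a lower level at D20.

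Members called were 1, 4, 3, 3 and 1 for TGF-β at D1, TGF-β at D20, D20 against D1 with TGF-β, the same without TGF-β, and the difference between the responses, and other pathway genes called were 9, 18, 20, 19 and 10. With the 48 lanes as samples, which treats repeats of the same RNA as replicates, the members called were 6 in D1+ TGF-β vs D1, 5 at D20+ TGF-β against D1+ TGF-β, 7 in D20 vs D1 and 5 for the difference, and other genes 26, 28, 35, 31 and 27. The share of all genes called was then 41.4%, 54.8%, 60.8%, 62.6% and 39.3%, in the same order of comparisons, and HBEGF was not tested there. DESeq2 and the fit without a filter each gave 5 members in D20 vs D1, and the latter 2 in D1+ TGF-β vs D1. Of all genes, these fits called 38.4% and 22% in D20 vs D1, and the fit without a filter 8.3% in D1+ TGF-β vs D1. Without both libraries that stood apart, the members called were 4, 7, 8 and 3 in all comparisons but D20+ TGF-β vs D20, and other genes 20 in D1+ TGF-β vs D1 and 22 for the difference.

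Leaving out each library in turn gave 1 to 2, 1 to 4, 3 to 4, 2 to 6 and 1 to 3 members and 6 to 15, 15 to 22, 15 to 25, 14 to 21 and 6 to 18 other genes. The highest counts in D1+ TGF-β vs D1 (15 other genes), D20 vs D1 (6 members) and the difference (3 members, 18 other genes) came without D1 replicate 2. The share of all genes called was also higher then, with 19.8%, 42.2% and 18.2% against 13.4%, 36.4% and 10.4% with all libraries. In D20+ TGF-β vs D20 the members called were 2 without D20 replicate 1 or D20+ TGF-β replicate 2 and 1 without D20 replicate 2. The share of all genes called was 20.9%, 21.9% and 18.9% in these fits, against 27.5% with all libraries. The 6 other genes for the difference came without D1+ TGF-β replicate 2 or 3, D20 replicate 2 or 3, or D20+ TGF-β replicate 1.

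All changes of sign were of members not called. NRG1 had -0.0012 for the difference with limma on the deposited values. LRIG1 at D20+ TGF-β against D1+ TGF-β had -0.0345 without a filter and -0.0352 with filterByExpr. Without both libraries that stood apart, NRG1 had 0.095 in D1+ TGF-β vs D1 and 0.27 in D20+ TGF-β vs D20, SPRY4 had 0.023 in D1+ TGF-β vs D1 and -0.20 for the difference, and EGFR had 0.040 in D20 vs D1. With 1 library left out, NRG1 ranged from -0.54 to 0.088 in D1+ TGF-β vs D1, from -0.43 to 0.25 in D20+ TGF-β vs D20 and from -0.17 to 0.59 for the difference. SPRY4 ranged from -0.68 to 0.025 in D1+ TGF-β vs D1 and from -0.26 to 0.42 for the difference. SPRED1 ranged from -0.054 to 0.25 in D1+ TGF-β vs D1, LRIG1 from -0.039 to 0.079 and EREG from -0.048 to 0.51 at D20+ TGF-β against D1+ TGF-β, EREG from -0.75 to 0.18 for the difference, and EGFR from -0.20 to 0.040 in D20 vs D1.

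The replicate numbers were not taken to pair the flasks. Correlations of same-numbered libraries lay between -0.22 and 0.32. Differently numbered libraries were not compared in this way, so these values cannot exclude a pairing. With the replicate number as a block, members called in D1+ TGF-β vs D1 were 2, and all genes called were 1072, 2379, 3086, 3229 and 831 against 1271, 2609, 3307, 3457 and 985. The depth limits HBEGF at D20 and the ligands below the filter.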
